A study of Mus musculus with 15 samples.

Results

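Zscan4c, Zscan4d and Zscan4f were followed across 15 RNA-seq libraries of mouse embryonic stem cells (ESCs) with a control hairpin or a hairpin against Tet1 or Tet2. The 3 genes, out of 26061 in the gene table, were chosen by their levels and group differences in these same libraries. Their values are therefore given as a description, with no test. MERVL-int, 1 of 1217 classes in the repeat table, was taken as their companion in the same way. All 3 genes were lower in shTet1 than in shScr cells and higher in shTet2 cells at each of the 5 replicate numbers. No label gives these numbers as a pairing. Mean reads, scaled for library size, were 46.7% to 47.9% of shScr in shTet1 and 198% to 200% of shScr in shTet2.

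All cells were E14, an ESC line of 129/Ola background, kept without feeders in serum with leukaemia inhibitory factor (LIF). Each group had 5 libraries of rRNA-depleted total RNA. All groups, the control included, had been transduced with pLKO.1 lentivirus and selected with puromycin for 3 days. The virus carried a short hairpin RNA (shRNA) with a non-targeting sequence in shScr, an shRNA against Tet1 in shTet1 and an shRNA against Tet2 in shTet2. Each Tet gene was targeted by 1 hairpin, so that effects of the hairpin and of its target cannot be told apart. The labels did not say whether libraries of a group came from separate infections, and the spread between them may be technical. RNA was extracted by either of a pair of methods, and the labels did not say which library had which.

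Zscan4 genes encode nuclear proteins with a SCAN domain, which mediates protein pairing, and zinc fingers, which bind DNA. In the mouse embryo they are transcribed at the 2-cell stage, when the zygotic genome is activated. In ESC cultures they are transcribed in bursts by a small and changing fraction of cells, called 2-cell-like, and they are known for a role in telomere maintenance. The same cells transcribe MERVL, an endogenous retrovirus whose internal part is MERVL-int and whose long terminal repeat is MT2_Mm. TET1 and TET2 oxidise methylated cytosine, a step towards its removal. In RNA from a whole culture, fewer 2-cell-like cells and less Zscan4 RNA per such cell cannot be told apart.

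The libraries held 15258291 to 35432425 gene reads and 7476759 to 19985961 repeat reads. Values are those deposited, on a variance-stabilised scale close to log2 for well-covered features, on which 4.25 stands for 0 reads of a gene and 2.39 for 0 reads of a repeat class. Tet1 was at 27.8% of its shScr reads in shTet1 (difference −1.84, limma adjusted p = 0.000228) and Tet2 at 26.6% in shTet2 (difference −1.90, limma adjusted p = 3.67e-07), each without overlap of the groups. All 10 ESC markers were detected in every group. Their summed levels were 4384 to 4920 RPM (reads per 1000000 gene reads) in shScr, 4503 to 5326 in shTet1 and 3938 to 4463 in shTet2. Means of 9 of the 10 were lower in shTet2 than in shTet1 and 1 was higher, with a median difference of −0.35 (0.01 for all genes). At a limma adjusted p under 0.05, 0 of the 10 were called in any comparison. After removal of group means, a principal component with 38.1% of the variance of all tested genes separated replicates 1 and 2 from replicates 3 to 5 in each group. Receptor genes of smell (symbols starting with Olfr or Vmn), which have no known use in ESCs, summed to 54.5 to 64.7 RPM in shScr 4, shTet1 3, shTet1 4 and shTet2 4, against 11.1 to 26.5 RPM in the other 11 libraries.

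The Zscan4 genes lie in a cluster on chromosome 7 of the mm9 genome, chr7:11486098-12104460, which spans 618.4 kb and holds 6 Zscan4 genes, 3 on each strand. Zscan4c lies at chr7:11591071-11595896 on the plus strand, Zscan4d at chr7:11746992-11751497 on the minus strand and Zscan4f at chr7:11983264-11988090 on the plus strand, in the GENCODE vM1 annotation. None of the 3 overlaps another annotated gene. The coding sequences of Zscan4c and Zscan4f were 99.6% identical, with 6 substitutions, and that of Zscan4d was 97.7% identical to each, with 35 substitutions. Of all stretches of 75 bases in the longest transcript, 71.3% in Zscan4c, 35.8% in Zscan4d and 96.6% in Zscan4f also occurred in the transcript of another Zscan4 gene, and 0% occurred in other protein-coding transcripts. The authors kept a read with several equally good positions at 1 of them. Reads of the Zscan4 rows can thus be shared out between copies, most for Zscan4f and least for Zscan4d, and the 3 rows are not independent measurements.

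The promoters of the 3 genes are shown because they are nearly the same sequence around the start of transcription. They are RefSeq promoters (GRCm38.p6) from 250 bases before to 50 bases after the start, written 5′ to 3′ on the strand of the gene, with each CG, the site of cytosine methylation, and the TATA box motif TATAAA in capitals. Each matched mm9 at 1 place on chromosome 7.
Zscan4c, chr7:11590844-11591143, plus strand: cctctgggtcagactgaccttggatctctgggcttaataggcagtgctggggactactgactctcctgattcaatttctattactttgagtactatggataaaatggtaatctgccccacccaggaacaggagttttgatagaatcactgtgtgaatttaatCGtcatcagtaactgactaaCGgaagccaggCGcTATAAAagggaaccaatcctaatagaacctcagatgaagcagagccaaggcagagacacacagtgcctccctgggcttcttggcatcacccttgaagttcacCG
Zscan4d, chr7:11751448-11751747, minus strand: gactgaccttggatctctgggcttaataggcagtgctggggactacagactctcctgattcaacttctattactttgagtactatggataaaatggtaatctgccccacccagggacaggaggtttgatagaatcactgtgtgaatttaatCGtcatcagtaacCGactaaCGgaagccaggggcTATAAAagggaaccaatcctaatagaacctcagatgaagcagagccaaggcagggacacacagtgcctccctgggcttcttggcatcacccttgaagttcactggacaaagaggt
Zscan4f, chr7:11983014-11983313, plus strand: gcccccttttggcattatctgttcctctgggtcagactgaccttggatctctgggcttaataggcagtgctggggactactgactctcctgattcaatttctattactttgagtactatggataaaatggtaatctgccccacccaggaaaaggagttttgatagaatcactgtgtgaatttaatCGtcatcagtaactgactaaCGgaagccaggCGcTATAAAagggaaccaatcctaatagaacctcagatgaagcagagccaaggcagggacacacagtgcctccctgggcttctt
Where they overlapped, the promoters of Zscan4c and Zscan4f differed at 2 of 277 bases, those of Zscan4c and Zscan4d at 8 of 289 and those of Zscan4d and Zscan4f at 7 of 266. Zscan4c held 4 CG and the others 3 each, against a median of 7 over 27025 RefSeq promoters of the same length, of which 38.3% held at most 4 and 31.9% at most 3. TATAAA occurred once in each, on the strand of the gene, 54 bases before the RefSeq start in Zscan4c, 65 in Zscan4d and 31 in Zscan4f. On either strand TATAAA occurred in 14.2% of all promoters. The forward primer of the study for the MERVL long terminal repeat had 106 exact matches on chromosome 7, of which 3 lay in the cluster. The reverse primer had 0 exact matches in the genome and was not used. Repeats without an exact match to the forward primer were not located. The nearest match on the chromosome lay 4.0 kb from the start of Zscan4d, 94.6 kb from that of Zscan4f and 108.0 kb from that of Zscan4c.

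For Zscan4c the mean value was 12.19 ± 0.24 in the control (SD, n = 5), 10.92 ± 0.91 with the Tet1 hairpin and 13.16 ± 0.35 with the Tet2 hairpin. Its values in replicates 1 to 5 were 11.96, 11.98, 12.48, 12.14 and 12.40 in shScr, then 9.61, 10.45, 11.64, 11.07 and 11.83 in shTet1, and lastly 13.28, 13.67, 12.80, 13.16 and 12.88 in shTet2. The 3 groups did not overlap, shTet1 lying below shScr and shTet2 above it. The libraries of shTet1 lay farthest apart, with replicates 1 and 2 lowest, while in shTet2 replicates 1 and 2 were highest. The recovered reads of the gene ran from 1016 in shTet1 1 to 16845 in shTet2 2.

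Zscan4d, the copy with the most sequence of its own, was at 11.89 ± 0.33 (SD, n = 5) in shScr, at 10.60 ± 1.04 in shTet1 and at 12.87 ± 0.33 in shTet2. Its values in replicates 1 to 5 were 11.60, 11.64, 12.26, 11.71 and 12.23 in shScr, then 9.13, 10.06, 11.32, 10.74 and 11.77 in shTet1, and lastly 13.05, 13.34, 12.48, 12.80 and 12.68 in shTet2. The group shTet2 lay above all other libraries. The groups shTet1 and shScr overlapped for this gene, since shTet1 5 lay above shScr 1, 2 and 4.

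Zscan4f was at 12.23 ± 0.27 (SD, n = 5) in shScr, at 10.99 ± 0.87 in shTet1 and at 13.21 ± 0.38 in shTet2. Its values in replicates 1 to 5 were 11.99, 12.03, 12.57, 12.11 and 12.46 in shScr, then 9.76, 10.48, 11.60, 11.19 and 11.90 in shTet1, and lastly 13.39, 13.75, 12.80, 13.14 and 12.95 in shTet2. As for Zscan4c, the 3 groups did not overlap, and the library order within groups was nearly that of Zscan4c.

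**Figure D1:**
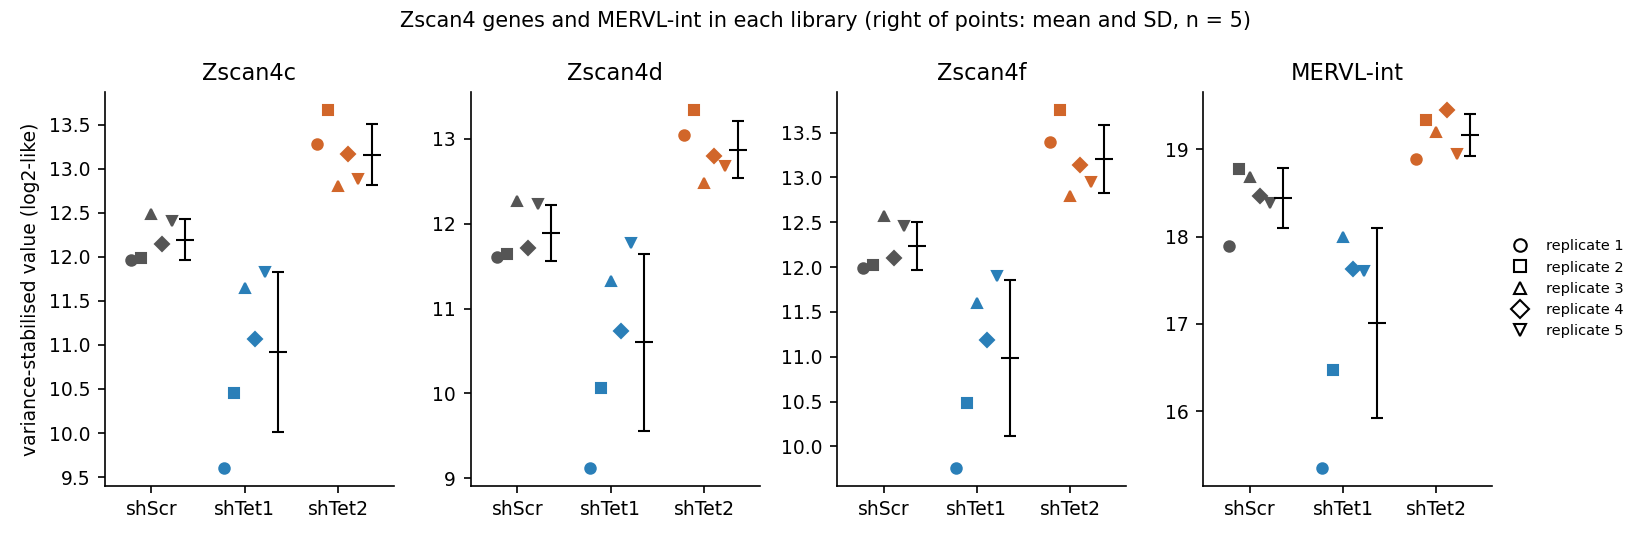
Variance-stabilised value (y axis, log2-like) of Zscan4c, Zscan4d, Zscan4f and MERVL-int in the 15 libraries, by group (x axis), with a marker shape for each replicate number and the mean with SD (n = 5) to the right of each group. In all panels shTet2 lies highest, and shTet1 1 and shTet1 2 lie below all other libraries.

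MERVL-int was at 18.44 ± 0.35 (SD, n = 5) in shScr, at 17.01 ± 1.09 in shTet1 and at 19.17 ± 0.24 in shTet2. Its values in replicates 1 to 5 were 17.89, 18.77, 18.68, 18.46 and 18.39 in shScr, then 15.35, 16.47, 18.00, 17.63 and 17.60 in shTet1, and lastly 18.89, 19.33, 19.20, 19.45 and 18.95 in shTet2. The shTet2 libraries lay above all others, and shTet1 overlapped shScr because shTet1 3 lay above shScr 1. The table pooled the reads of all copies of the repeat class. They came to 52329 in the library with the fewest and 1134987 in the library with the most.

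The difference of group means between shTet1 and shScr was −1.28 for Zscan4c, −1.29 for Zscan4d and −1.24 for Zscan4f, with standard errors of 0.31, 0.35 and 0.30 from a limma fit over all libraries. Between shTet2 and shScr it was 0.96, 0.98 and 0.97, in the same order and with the same standard errors. Between shTet2 and shTet1 it was 2.24, 2.27 and 2.22. The 3 genes therefore differed from each other by at most 0.05 in any of these comparisons. The standard errors do not measure differences between genes, since all 3 come from the same libraries. MERVL-int differed by −1.43, 0.73 and 2.15 in these comparisons (SE 0.38).

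The place of these differences among all features shows why the members were picked and is no result. Among 19490 tested genes ordered from the most negative difference, Zscan4d, Zscan4c and Zscan4f stood at places 9, 11 and 15 in shTet1 against shScr. Ordered from the most positive, they stood at places 74, 83 and 78 in shTet2 against shScr, and at 13, 19 and 23 in shTet2 against shTet1. The groups shTet1 and shScr failed to overlap in the lower direction for 2 of the 3 members and for 1.11% of all tested genes. The groups shTet2 and shScr failed to overlap in the higher direction for 3 of 3 and for 1.75% of all genes, and shTet2 and shTet1 for 3 of 3 and for 3.6%. Of 1187 tested repeat classes, 0.0842% lay wholly lower in shTet1 than in shScr, 0.253% wholly higher in shTet2 than in shScr and 0.927% wholly higher in shTet2 than in shTet1, and MERVL-int was among the last 2 sets but not the first.

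The size of the differences was uneven across replicate numbers. For Zscan4c, shTet1 minus shScr was −2.36, −1.53, −0.84, −1.07 and −0.58 in replicates 1 to 5, and shTet2 minus shScr was 1.31, 1.68, 0.32, 1.02 and 0.47. Zscan4d ran from −2.48 to −0.46 in shTet1 and from 0.22 to 1.70 in shTet2, and Zscan4f from −2.23 to −0.56 and from 0.22 to 1.73. In both knockdowns, replicates 1 and 2 thus had the largest differences for all 3 genes, on opposite sides of 0. Within replicates 1 and 2, the mean difference from shScr was −1.94 in shTet1 and 1.50 in shTet2 for Zscan4c, −2.03 and 1.57 for Zscan4d and −1.89 and 1.56 for Zscan4f. Within replicates 3 to 5 it was −0.83 and 0.60 for Zscan4c, −0.79 and 0.59 for Zscan4d and −0.81 and 0.58 for Zscan4f. MERVL-int followed this split in shTet1, with −2.42 within replicates 1 and 2 and −0.77 within replicates 3 to 5. In shTet2 it differed from shScr by 0.78 within replicates 1 and 2 and by 0.69 within replicates 3 to 5. No label tells what set replicates 1 and 2 apart, and its part in the size of the differences was not tested. Without the 4 libraries rich in receptor reads, the difference from shScr was −1.55 to −1.61 in shTet1 and 0.95 to 0.96 in shTet2 for the 3 genes.

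**Figure D2:**
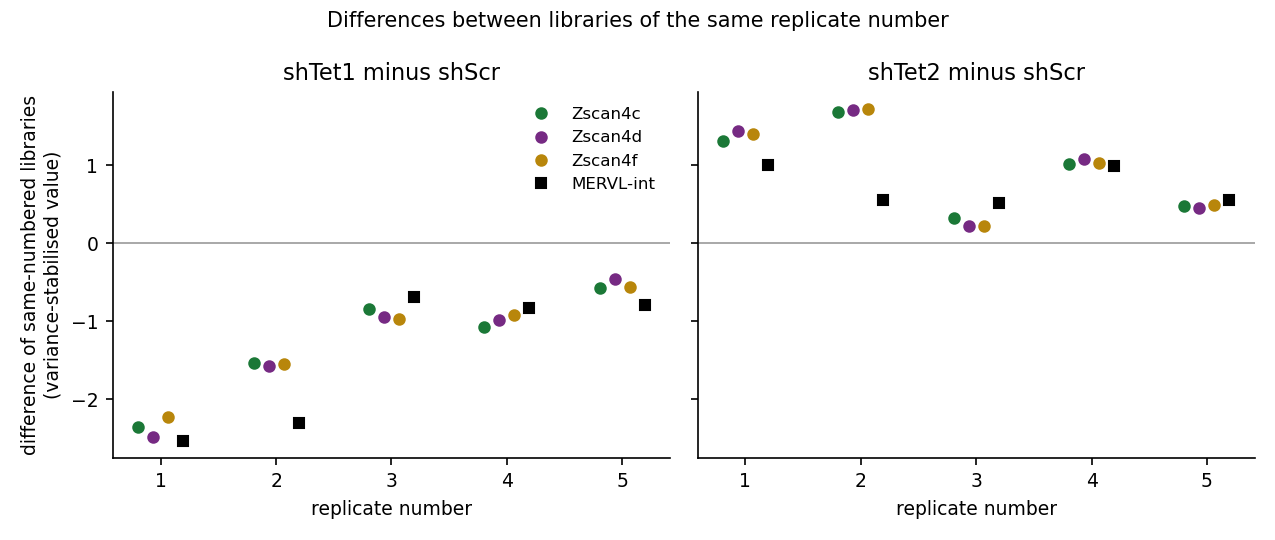
Difference in variance-stabilised value (y axis) between libraries of the same replicate number (x axis), shTet1 minus shScr on the left and shTet2 minus shScr on the right, 1 point per feature. All points lie below 0 on the left and above 0 on the right, and each Zscan4 gene lies farther from 0 in replicates 1 and 2 than in replicates 3 to 5. On the left MERVL-int lies farther from 0 than the Zscan4 genes in replicates 1 and 2.

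Levels of different genes were compared per kb of exon, in RPM per kb. In shScr, Zscan4c stood at 90.8 ± 13.3, Zscan4f at 88.4 ± 14.5 and Zscan4d at 85.4 ± 17.6 (SD, n = 5), which lie within their spread. In shTet1 they stood at 42.6 ± 20.8, 41.9 ± 19.7 and 41.0 ± 23.5, and in shTet2 at 192 ± 55.4, 189 ± 58.7 and 181 ± 49.8. The order of the 3 was the same in each group, and neighbours in it lay within the SD between libraries. That SD does not measure differences between genes of the same library, which were not tested. Zscan4-ps2 stood beside them, at 92.0 ± 13.7 in shScr, while Zscan4e and Zscan4b were lower, at 60.6 ± 10.6 and 56.2 ± 9.17. These levels depend on how shared reads were assigned to the copies.

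The other Zscan4 rows gave nearly the same differences as the members. Against shScr, Zscan4b differed by −1.30 in shTet1 and 0.98 in shTet2, Zscan4e by −1.29 and 0.95 and Zscan4-ps2 by −1.24 and 0.98. Gm10991, which lies inside the cluster, had 0 reads in all 15 libraries. Summing the reads of all 6 Zscan4 rows removes the question of which of these rows a read was given to. Reads placed at sequences outside the 6 rows are not in the sum. The sum was 827 to 1187 RPM in shScr, 189 to 724 in shTet1 and 1583 to 2994 in shTet2, without overlap of the groups. On the log2 scale of the sum plus 1 RPM, the differences were −1.24, 1.06 and 2.30 in the order of comparisons used above. Over 15 libraries Zscan4f held 21.4 ± 0.872% of this sum, Zscan4c 20.7 ± 0.789% and Zscan4d 16.7 ± 1.44% (SD). Single libraries ran from 18.9% to 22.5% for Zscan4f, from 19.0% to 21.9% for Zscan4c and from 13.5% to 19.6% for Zscan4d, while the sum itself ran from 189 to 2994 RPM.

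**Figure D3:**
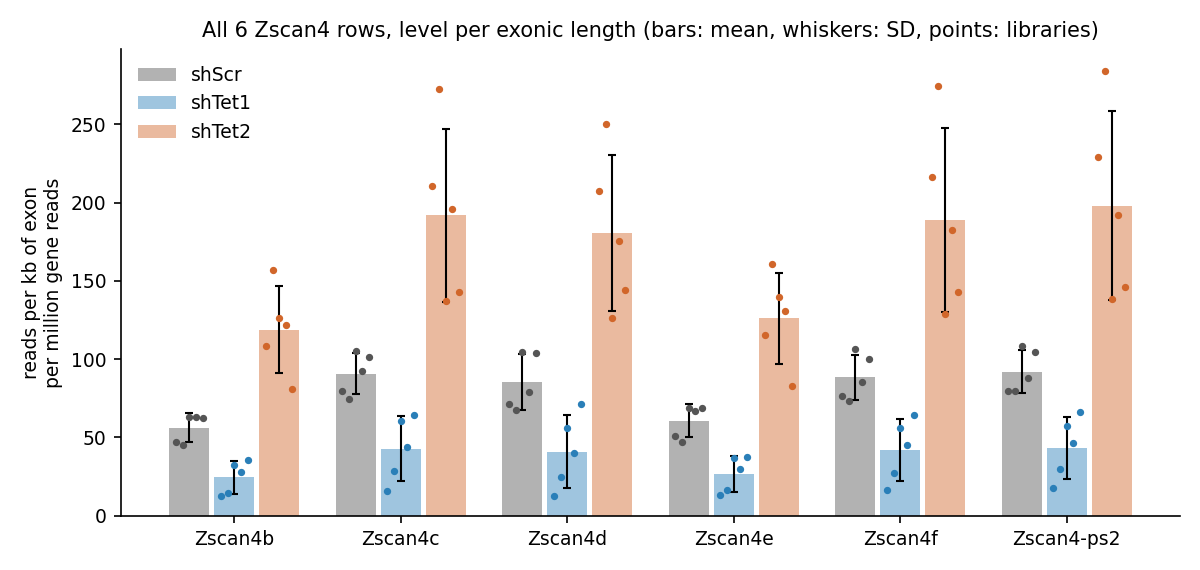
Level in RPM per kb of exon (y axis, from 0) of the 6 Zscan4 rows (x axis) in shScr, shTet1 and shTet2, as bars for the mean, whiskers for the SD (n = 5) and 1 point per library. Each row has its lowest bar in shTet1 and its highest in shTet2, and Zscan4b and Zscan4e have lower bars than the other 4.

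Across the 15 libraries, the values of the members moved together, with Pearson r of 0.996 for Zscan4c and Zscan4d, 0.999 for Zscan4c and Zscan4f and 0.996 for Zscan4d and Zscan4f. After subtraction of group means r was 0.991, 0.994 and 0.992. These points share their libraries, and the rows can share reads. The mean of the 3 members had r = 0.947 with MERVL-int over 15 libraries and 0.834 after subtraction of group means. With MT2_Mm, the long terminal repeat, r was 0.969 and 0.902. MT2_Mm stood at 16.33 ± 0.27 (SD, n = 5) in shScr, at 15.05 ± 0.97 in shTet1 and at 17.05 ± 0.20 in shTet2, and its 3 groups did not overlap. The points of both tables share their libraries.

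**Figure D4:**
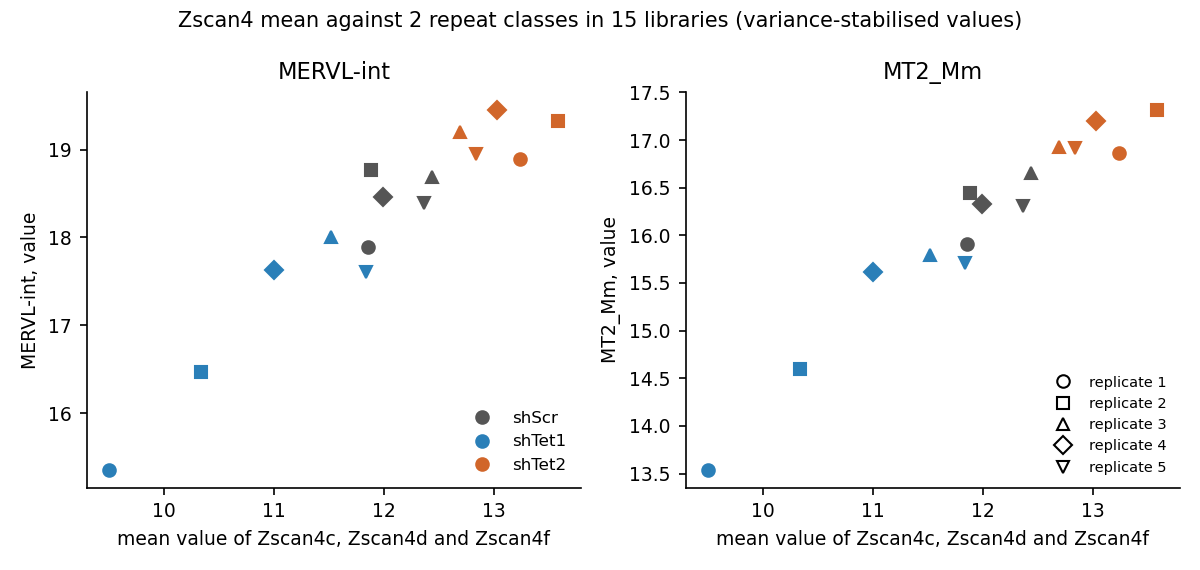
Value of MERVL-int (left) and MT2_Mm (right) on the y axis against the mean value of Zscan4c, Zscan4d and Zscan4f on the x axis, on the variance-stabilised scale, 1 point per library, with colour for the group and shape for the replicate number. The points rise from shTet1 1 at the lower left to the shTet2 libraries at the upper right.

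The genes whose pattern was most like the mean of the members were sought among 14546 genes outside the Zscan4 family with a mean value at least 1 unit above the minimum. By r over 15 libraries, the 10 highest were Gm8766 (0.996), Gm6763 (0.995), Gm4340 (0.995), Gm6189 (0.984), Gm2075 (0.978), Gm12800 (0.978), Gm4027 (0.978), Tmem92-ps (0.976), Gm13691 (0.975) and Gm2046 (0.975). By r of deviations from group means, 8 of these were again among the 10 highest, led by Gm8766 (0.984), with Gm8994 (0.941) and Gm8300 (0.927) in place of the other two. All but Tmem92-ps carry provisional names given to predicted genes, and Gm6763, Gm4340, Gm4027, Gm8994 and Gm8300 also stand in the list of 2-cell-like genes described next. By Spearman rho in place of Pearson r, Gm6763, Gm8766 and Gm4340 held the first 3 places, Gm2046 sharing the third. Among 1132 repeat classes, MT2_Mm, MERVL-int, ORR1A3-int, MT2C_Mm and MERVL_2A-int were the most alike over 15 libraries, with r from 0.969 down to 0.847. By deviations, MT2_Mm, MERVL-int and ORR1A3-int led again, followed by tRNA-Leu-CTA_ (0.744) and (TTCGGG)n (0.662). The last named fell to place 134 when each library was centred on its median.

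Beyond the Zscan4 family, a list of 46 genes known from 2-cell-like cells was described, of which 39 were found in the gene table and tested. It was drawn up with earlier results of these data known and includes several multicopy families, whose members can share reads. In shTet2 against shTet1, 34 of 39 were higher (limma adjusted p under 0.05) and 0 lower, where 2.88% of all 19490 genes were higher and 1.36% lower (561 and 266 genes, or 437 and 327 after median centring). The median difference was 1.74 for the list and 0.01 for all genes. In shTet2 against shScr, 2 of 39 were higher and 0 lower, with 0.221% of all genes higher and 0.169% lower. These shares stand for 43 and 33 genes, a split that became 5 and 34 after median centring, 16 and 29 after quantile normalisation and 75 and 24 on the scale of log2(RPM + 1). In shTet1 against shScr, 0 of 39 were called in either direction by limma and by limma-voom on recovered reads, where 0.0462% of all genes were higher and 0.0257% lower. At an unadjusted p under 0.05 there were 32 of 39, against 11.8% of all genes. The median difference of the list was 0.89 in shTet2 and −0.79 in shTet1, against 0.04 and 0.01 for all genes. Differences were negative for 37 of 39 in shTet1 and positive for 37 of 39 in shTet2, counts that share the shScr libraries.

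Same-numbered libraries of shTet1 and shScr deviated together, and the part of the split of replicates 1 and 2 from replicates 3 to 5 in this was not tested. No label gives the numbers as a pairing, so calls with the replicate number as a block, here and below, rest on an assumption. With the block 27 of the 39 genes were lower in shTet1 than in shScr, where 2.26% of all genes were called lower in that fit. The block also gave 34 of 39 higher in shTet2 than in shTet1, where 6.52% of all genes were higher and 4.65% lower. Within replicates 3 to 5 alone, 25 of 39 were higher in shTet2 than in shTet1, against 0.636% of all genes. Within replicates 1 and 2, with 2 libraries a group, 0 were called of the list and 0 of all genes. Leaving out shTet1 5 gave 10 genes lower in shTet1 in place of 0, while those lower among all genes went from 5 to 81, or 0.416%. For shTet2 against shScr the count of 2 fell to 0 without shScr 1, 2 or 5 or shTet2 1, 2 or 4, was 1 without shScr 3 or 4, shTet1 3 or 4 or shTet2 3, and rose to 9 without shTet1 1 and to 4 without shTet1 5.

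By size, the 12 leading genes of the list between shTet2 and shTet1 were Gm12794, Tdpoz3, Gm2016, Gm5662, Gm8300, Gm4340, Gm6763, Dub1a, Gm4027, Usp17l5, B020004J07Rik and Tdpoz4, with differences from 2.39 down to 1.90. The members' differences of 2.22 to 2.27 fell inside this range. Gm12794, of the Prame-like family, was at 10.13 ± 0.19 (SD, n = 5) in shScr, at 8.93 ± 0.86 in shTet1 and at 11.31 ± 0.30 in shTet2, with a difference of 2.39 ± 0.29 (SE) between the knockdowns and limma adjusted p = 0.000123. Dub1a, a deubiquitinase of the Usp17-like family, was at 8.85 ± 0.51, 7.83 ± 0.75 and 10.06 ± 0.21, with a difference of 2.23 ± 0.29 and limma adjusted p = 0.000231. The 2 genes called in shTet2 against shScr were Tdpoz3, a gene of the TD and POZ domain family (1.32, limma adjusted p = 0.0485), and Gm13119 (1.08, limma adjusted p = 0.0297). The call of Tdpoz3 was lost in 13 and that of Gm13119 in 6 of the 15 fits without 1 library, including those without shScr 1, 2 or 5 or shTet2 1, 2 or 4 for both. None of the list was called in shTet1 against shScr, where its 4 most abundant genes, Gm5662, Gm2016, Gm8300 and Gm6763, differed by −1.29, −1.29, −1.29 and −1.24 (limma adjusted p from 0.131 to 0.183). All 4 were lower in shTet1 in the fit with the replicate block.

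Dux and Zfp352 are named for their known roles and outside the naming rule, with their values seen. Dux, the transcription factor that switches on MERVL and Zscan4 at genome activation, was at 6.81 ± 0.14 (SD, n = 5) in shScr, at 6.14 ± 0.36 in shTet1 and at 7.40 ± 0.42 in shTet2. It differed by 1.27 ± 0.21 (SE) between the knockdowns (limma adjusted p = 0.00126), by −0.68 in shTet1 (adjusted p = 0.180) and by 0.59 in shTet2 (adjusted p = 0.245). The replicate block changed its call in shTet1 against shScr to lower (limma adjusted p = 0.0324). Zfp352, a zinc finger gene of the 2-cell embryo, differed by 1.70 ± 0.25 between the knockdowns (limma adjusted p = 0.000543) and by −0.95 in shTet1 (limma adjusted p = 0.125, and 0.0207 with the replicate block). Genes of the list that were not called in any comparison were Zfp750, Refbp2, Zscan5b, Chit1 and D5Ertd577e, all at or under a mean value of 7.13. Called genes of the list also stood below that value, among them Tdpoz5 at 5.53 and Tdpoz1 at 5.28.

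**Figure D5:**
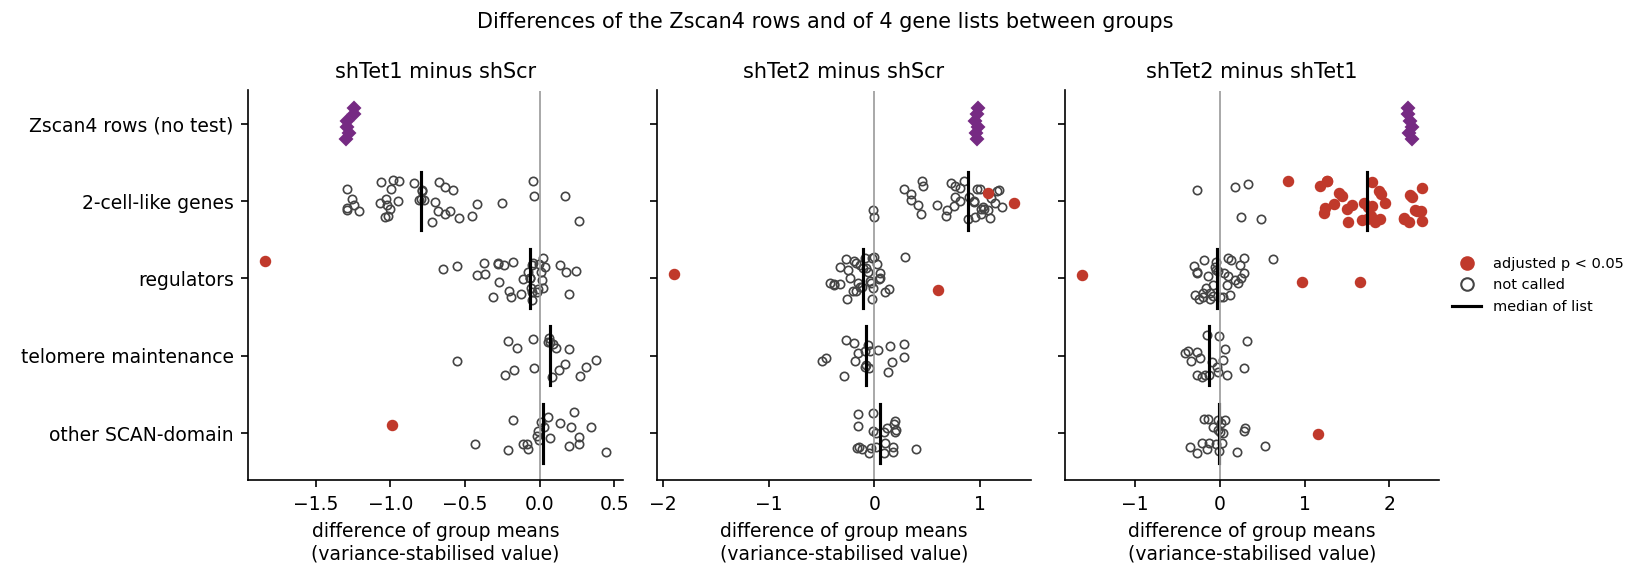
Difference of group means (x axis, variance-stabilised value) in the 3 comparisons for the 6 Zscan4 rows (diamonds, not tested) and for the genes of 4 lists (circles, filled where the limma adjusted p was under 0.05), with a black bar at the median of each list. The 2-cell-like genes lie left of 0 in shTet1 and right of 0 in shTet2 for 37 of 39 genes each, and the medians of the other lists lie near 0.

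Genes known to control the 2-cell-like state were described next, 36 of 36 found and tested, with Tet1, Tet2 and Tet3 among them. In shTet1 against shScr, 1 was lower, the targeted Tet1, and 0 were higher. In shTet2 against shScr, 1 was lower, the targeted Tet2, and 1 was higher, Whsc2. In shTet2 against shTet1, 2 were higher, Tet1 and Whsc2, and 1 was lower, Tet2. Among all genes, 0.0257% were lower and 0.0462% higher in shTet1 against shScr. The shares were 0.169% and 0.221% in shTet2 against shScr and 1.36% and 2.88% in shTet2 against shTet1. Whsc2, also named Nelfa, encodes a subunit of the negative elongation factor, which holds RNA polymerase II near the start of genes. It was at 10.83 ± 0.11 (SD, n = 5) in shScr, at 10.46 ± 0.15 in shTet1 and at 11.44 ± 0.19 in shTet2, without overlap of the groups. It was higher in shTet2 by 0.60 against shScr (limma adjusted p = 0.0372) and by 0.97 against shTet1 (limma adjusted p = 0.000147), and differed by −0.37 in shTet1 (limma adjusted p = 0.212). The call against shScr was lost in 11 of the 15 fits without 1 library, and held without shTet1 1, 4 or 5 or shTet2 3. With the replicate block, Rif1 and Lin28a were also lower in shTet1 than in shScr, with differences of −0.55 and −0.64, which made 3 in place of 1, and Lin28a was higher in shTet2 than in shTet1 by 0.63. In that fit 2.26% of all genes were lower in the former comparison and 6.52% higher in the latter. The most abundant regulators, Rif1, Ncl, Trim28 and Usp7, were at mean values of 15.91, 15.35, 14.71 and 14.67. The silencing factors Trim28 and Setdb1 differed from shScr by −0.28 and −0.06 in shTet1 and by −0.15 and −0.02 in shTet2. Dppa2 and Dppa4, activators of Dux, differed from shScr by −0.31 and 0.01 in shTet1 and by −0.10 and 0.10 in shTet2, and Tet3 by −0.42 and −0.13. Neither these nor Ncl and Usp7 were called.

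Of 20 telomere maintenance genes, 19 were tested, and 0 were called in any comparison by limma and by limma-voom, while unadjusted p-values under 0.05 numbered 1, 3 and 4 in the order of comparisons used above. Among all genes the shares at that threshold were 11.8%, 11.6% and 15.7%. In the fit with the block, Rif1 was lower in shTet1 than in shScr, and Pot1a, Pot1b and Tinf2 were lower in shTet2 than in shTet1. Of all genes, 2.26% and 4.65% were lower in these comparisons with the block. Pot1a, Pot1b and Tinf2 encode parts of shelterin, the complex that covers telomere ends, and differed by −0.34, −0.41 and −0.37. Atrx, Dkc1 and Terf1, with Rif1 the most abundant of the list, differed from shScr by 0.07, −0.04 and 0.27 in shTet1 and by −0.20, −0.05 and 0.04 in shTet2.

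Of 22 other zinc finger genes listed for a SCAN domain, Peg3 was called, and the rest were not. Peg3, an imprinted gene, was lower in shTet1 than in shScr, with a difference of −0.99 (limma adjusted p = 0.0161), and higher in shTet2 than in shTet1 by 1.16 (limma adjusted p = 0.000332). Its call against shScr was lost without shScr 2 and without shTet1 1, 2 or 4. Zscan10, a SCAN-domain gene used by ESCs at large, differed from shScr by −0.21 in shTet1 and −0.01 in shTet2. In shTet2 against shScr, 0 of the 22 were called by limma and by limma-voom, with 0 unadjusted p-values under 0.05. Counted with the block, 2 were higher in shTet2 than in shTet1, Peg3 and Zkscan14. Of all genes, 6.52% were higher in that fit and 2.88% without the block.

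Markers of other cell types stood beside these results as follows. Means of all 10 primitive endoderm markers were lower in shTet2 than in either other group, with a median difference of −0.77 from shScr. None was called by limma, while unadjusted p-values under 0.05 numbered 0, 8 and 5 of 10 in the order of comparisons used above, against 11.8%, 11.6% and 15.7% of all genes. By limma-voom 1 was lower in shTet2 than in shTet1. Their summed level was 55.7 to 125 RPM in shScr, 38.2 to 78.4 in shTet1 and 15.8 to 47.4 in shTet2, and Cubn, the most abundant, differed by −1.63 in shTet2. With the replicate block, 4 of them, Pdgfra, Dab2, Amn and Srgn, were lower in shTet2 than in shTet1. Among all genes, 4.65% were lower and 6.52% higher in that comparison with the block, and 1.36% and 2.88% without it. Of 10 trophoblast markers, Ascl2 was higher (0.88) and Eomes lower (−0.94) in shTet2 than in shTet1, with summed levels of 65.0 to 88.6 in shScr, 55.4 to 138 in shTet1 and 62.0 to 131 in shTet2. Oocyte markers, which 2-cell embryos inherit as RNA, were near 0, at 4.36 to 6.22, 2.60 to 5.64 and 5.96 to 9.16 RPM in sum over 10 genes, of which 1 or 2 had 0 reads in a whole group. Means of all 8 tested oocyte markers were higher in shTet2 than in either other group. Their unadjusted limma p-values under 0.05 numbered 1, 3 and 4 of 8 in the same order of comparisons, beside the shares of all genes given above. Bmp15, an oocyte growth factor gene, was higher in shTet2 than in shTet1 by 0.65. The call of Ascl2 was lost without shTet1 2, 3, 4 or 5 or shTet2 1, 2 or 3, that of Eomes without shTet1 1 or shTet2 1, 2 or 4 and that of Bmp15 without shTet1 1, 2 or 3 or shTet2 1, 2, 4 or 5. With the block, Gata3, Vim and Zp3 were also higher and the ESC marker Dppa5a lower in shTet2 than in shTet1, and Eomes was higher in shTet1 than in shScr. Fibroblast markers, of which 1 had 0 reads, came to 538 to 974, 557 to 1082 and 607 to 1145, with 0 of 9 tested genes called in any comparison by limma and by limma-voom and 0, 1 and 1 at an unadjusted p under 0.05. The part of these cell types in the Zscan4 differences was not tested.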

How the data were processed

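The members and gene lists were chosen with earlier results of these data known. Per the submitters' processing notes, reads were trimmed with Trim Galore 0.3.3 and aligned to mm9 with TopHat2 2.0.9. The study's methods state that a read with several equal hits was kept at 1 of them. The deposited tables hold DESeq2 variance-stabilised values on a log2 scale, 1 column per library, made by the authors from gene and repeat counts that were not used here. Undoing the transformation gave whole reads (within 0.05, checked under 1000 reads) for 100% of values, and reads, reads per 1000000 gene reads (RPM) and scaled reads derive from these.

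All 15 libraries were fitted in 1 model by group with limma 3.58.1 (lmFit, eBayes with trend, R 4.3.3), over 19490 genes and 1187 repeat classes above the table minimum in at least 5 libraries, with Benjamini-Hochberg adjustment and calls at adjusted p under 0.05 (two-sided). List genes were named when called (up to 12 by size), or as the 4 most abundant where fewer than 4 were called. In marker lists fewer were named. Deviations of same-numbered libraries correlated with r of 0.374 to 0.657 for shTet1 and shScr and 0.330 to 0.731 for shTet2 and shTet1, over 0.1 in 5 of 5 pairs, so those numbers were taken to pair libraries. For shTet2 and shScr 4 of 5 pairs passed, and they were not. Alternatives covered scaling, pseudocount, filter, weights, the replicate block, limma-voom, the receptor share, each library left out and subsets of replicates. Positions are from mm9 with GENCODE vM1. Precision is limited by 5 libraries a group, and p-values measure the spread between these libraries.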

Additional observations from a re-analysis of the deposited data

How the results depend on the processing

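The differences of the 3 Zscan4 genes and MERVL-int kept their sign in all 300 values from alternatives (12 differences), and 291 moved by less than the spread between replicates. The other 9 came from subsets of replicates. Within replicates 1 and 2, shTet2 minus shScr was 1.50, 1.57 and 1.56 for Zscan4c, Zscan4d and Zscan4f and shTet2 minus shTet1 was 3.44, 3.60 and 3.45. Within replicates 3 to 5, shTet2 minus shScr was 0.60, 0.59 and 0.58. Adding up the reads of all Zscan4 rows, scaling MERVL-int by the gene table's factors and counting list calls within subsets were chosen after seeing the data.

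Counts of 2-cell-like genes moved most. In shTet1 against shScr the count of 0 became 1 with array weights, 2 with the receptor share as covariate and 27 with the replicate block, and 0 to 10 over fits without 1 library. In shTet2 against shScr the count of 2 became 1 with no filter or quantile normalisation, 12 with only the compared groups fitted, 0 with median centring, 8 with array weights, 4 with the receptor share as covariate, 0 without the libraries rich in receptor reads, 0 within either subset of replicates and 0 to 9 without 1 library. In shTet2 against shTet1 the count of 34 became 0 within replicates 1 and 2 and was 31 to 34 without 1 library.

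For regulators, the count of 1 in shTet1 against shScr became 3 with the replicate block and 0 within either subset of replicates. In shTet2 against shScr the count of 2 became 1 with only the compared groups fitted, with median centring, without the libraries rich in receptor reads and within replicates 3 to 5, 0 within replicates 1 and 2 and 1 to 2 without 1 library. In shTet2 against shTet1 the count of 3 became 0 within replicates 1 and 2 and 4 with the filter on all 15 libraries, only the compared groups, quantile normalisation, array weights, the block, limma-voom or the receptor covariate, and was 3 to 4 without 1 library. Fewer libraries were fitted in the subsets, and the cause of the changed counts was not tested for any setting.

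The replicate numbers of shTet2 and shScr were not taken as pairs, although the same block was fitted over all groups. With the replicate block, 22 of the 39 2-cell-like genes and 543 of all genes were higher in shTet2 than in shScr, in place of 2 and 43, and 297 of all genes were lower in place of 33, while the regulators went from 2 to 3 called, 2 telomere genes and 6 primitive endoderm markers were lower and 1 fibroblast marker was higher. The calls that the block added in the comparisons taken as paired stand beside their lists. Over all genes, shTet1 against shScr went from 14 called to 495 higher and 440 lower with the block. The Tet1 call in shTet1 was lost within either subset of replicates and the Tet2 call in shTet2 within replicates 1 and 2, fits in which 0 of all genes were called, and both held in the other alternatives. Median centring took the median of all genes from 0.04 to −0.07 in shTet2 against shScr, where the 3 Zscan4 genes then differed by 0.85 to 0.87.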
